A study of Mus musculus with 78 samples.

Results

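The Slc25 family comprises the membrane carriers that move metabolites, nucleotides, cofactors and metal ions across the inner mitochondrial membrane, with a few members in the outer mitochondrial membrane or in peroxisomes. Every probe whose single gene symbol starts with Slc25a was taken as a member, which gave 68 probes of 45 genes among the 46643 probes and 19406 named genes of the array. Of these 68 probes, 38 (30 genes) lay above background often enough to be tested in at least 1 of 5 brain regions, and 30 did not.

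Illumina bead arrays (MouseWG-6 v1.1) recorded gene expression in male CD-1 mice, 10 weeks of age, of generation 25 of selective breeding. The mice came from 3 lines, selected for high anxiety-related behavior (HAB), for normal (NAB) or for low (LAB), and no group had received a treatment according to the labels. Laser microdissection gave tissue of 5 regions: cingulate cortex (Cg), central amygdala (CeA), hypothalamic paraventricular nucleus (PVN), basolateral amygdala (BLA) and dentate gyrus (DG). Each array held RNA of 1 region of 1 mouse. There were 75 arrays in all, namely 5 HAB, 6 NAB and 6 LAB arrays for the Cg, 6 HAB, 6 NAB and 5 LAB for the CeA, 6 HAB, 5 NAB and 5 LAB for the PVN, 5 HAB, 6 NAB and 5 LAB for the BLA, and 3 of each line for the DG. Arrays carried 21 mouse numbers, which are more mice than the study describes. Each line is a single breeding population, so that a difference between lines compares these 3 populations. The p-values measure the spread between arrays inside them, and in the fit over all regions a mouse could give several arrays.

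Carriers of this family are encoded in the nucleus and are built from repeated membrane-spanning modules. They supply mitochondria with ADP and phosphate, let ATP out, and pass citrate, malate, oxoglutarate, aspartate and glutamate between matrix and cytosol, which ties the transmitter glutamate to energy metabolism in the brain. Slc25a18 carries glutamate into mitochondria, and Slc25a17, the peroxisomal member, carries coenzyme A, FAD and NAD+.

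Reference sequence upstream of the start site was read for the members from RefSeq (build GRCm38.p6), and 35 of the 45 genes were matched, with 44 promoters. The 250 bases before the start of 4 genes are printed because their probes gave the line differences on which the results turn. No base of the HAB, NAB or LAB genomes was read, and each sequence is given from 5′ to 3′ on the strand of its gene. Capitals mark matches on either strand to the TATA box (TATAAA), the CCAAT box (spelled as its name), the GC box bound by Sp1 (GGGCGG), an Ets site (CCGGAAG) and a nuclear receptor site (AAGGTCA). None of these motifs contains another.
Slc25a18, chr6:120773518-120773767, plus strand: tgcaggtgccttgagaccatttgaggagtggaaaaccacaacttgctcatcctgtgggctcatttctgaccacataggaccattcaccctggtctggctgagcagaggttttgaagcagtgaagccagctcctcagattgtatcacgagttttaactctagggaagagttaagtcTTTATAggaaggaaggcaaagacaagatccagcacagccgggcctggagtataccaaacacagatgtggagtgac
Slc25a17, chr15:81360766-81361015, minus strand: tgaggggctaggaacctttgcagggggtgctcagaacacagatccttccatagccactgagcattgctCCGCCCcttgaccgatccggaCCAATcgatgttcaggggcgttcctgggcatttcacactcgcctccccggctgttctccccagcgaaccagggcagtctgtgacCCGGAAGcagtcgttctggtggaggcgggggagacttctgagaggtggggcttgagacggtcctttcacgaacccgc
Slc25a3, chr10:91123968-91124217, minus strand: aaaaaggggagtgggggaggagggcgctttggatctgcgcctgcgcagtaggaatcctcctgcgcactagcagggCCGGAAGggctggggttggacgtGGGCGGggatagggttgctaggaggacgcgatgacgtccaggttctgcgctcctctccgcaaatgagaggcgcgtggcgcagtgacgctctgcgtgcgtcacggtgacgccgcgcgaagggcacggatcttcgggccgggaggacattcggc
Slc25a30, chr14:75787038-75787287, minus strand: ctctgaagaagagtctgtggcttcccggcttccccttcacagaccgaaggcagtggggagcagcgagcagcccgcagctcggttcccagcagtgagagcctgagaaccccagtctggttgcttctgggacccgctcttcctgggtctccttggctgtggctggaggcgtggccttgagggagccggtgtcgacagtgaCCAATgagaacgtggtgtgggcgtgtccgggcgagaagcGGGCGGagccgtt
The Slc25a18 sequence held 2 CpG dinucleotides and only a TATA box match, read on the opposite strand. Those of Slc25a17, Slc25a3 and Slc25a30 held 14, 27 and 16 CpG dinucleotides, and each had a GC box match. Over the 44 member promoters the median was 11.5 CpG dinucleotides, against 6 over all 32851 promoters. The GC box was found in 68.2% of member promoters and in 32.7% of all promoters of this length, the CCAAT box in 43.2% and 33.8%, the Ets site in 13.6% and 6.91%, the nuclear receptor site in 2.27% and 4.08%, and the TATA box in 4.55% and 12.4%. These matches describe letters in this window and were not set against the expression values.

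Values are normalised intensities on a linear scale, as deposited. Background was set per array at the level under which 95% of the odorant and pheromone receptor probes lay, and ran from 6.99 to 10.6, and 29.9% to 42.9% of an array's probes exceeded it. Arrays of a group correlated at 0.945 to 0.981. All arrays of a region had been hybridised together, so that region and hybridisation batch cannot be told apart, whereas the lines were compared inside each batch. The labelled tissues were checked with marker genes. In the PVN, 3 of 3 tested PVN probes were higher than in the other 4 regions (median log2 difference 6.94). The DG probe, for Prox1, was higher in the DG by 3.03 ± 0.07 (SE). Both CeA probes were higher in the CeA (median 1.72). The list for BLA and Cg was higher with 3 of 3 probes in the Cg and with 2 of 3 in the BLA, where the third was lower. Cell type markers were tested between lines as well. Of 16 astrocyte probes, 2 were higher and 1 lower in HAB than in LAB mice, 2 and 1 in HAB than in NAB mice, and 1 and 3 in NAB than in LAB mice. Of 15 oligodendrocyte probes, 2 were higher in HAB than in LAB and 1 in HAB than in NAB mice. Of 6 microglial probes, 1 was lower in HAB than in LAB mice, 2 were higher and 1 lower in HAB than in NAB mice, and 4 were lower in NAB than in LAB mice. The median log2 difference of 9 neuronal probes was 0.01 for HAB minus LAB, 0.01 for HAB minus NAB and -0.02 for NAB minus LAB. As these are dissected tissues, fewer cells of a type and less RNA per cell cannot be told apart.

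Detection differed among the members. Of the 68 probes, 20 were above background in all 75 arrays and 27 in none. By region the tested probes numbered 32 (Cg), 31 (CeA), 33 (PVN), 32 (BLA) and 36 (DG), and 29 were tested in all 5 regions. The genes with the brightest probes were Slc25a5 (ADP/ATP exchange), Slc25a28 (iron import, mitoferrin 2), Slc25a22 (glutamate), Slc25a39 (glutathione), Slc25a11 (oxoglutarate and malate), Slc25a44 (branched-chain amino acids), Slc25a12 (aspartate and glutamate) and Slc25a27 (an uncoupling protein homologue). No probe was tested for 15 genes: Slc25a2, Slc25a13, Slc25a16, Slc25a20, Slc25a21, Slc25a31, Slc25a34, Slc25a37, Slc25a40, Slc25a42, Slc25a43, Slc25a48, Slc25a51, Slc25a53 and Slc25a54. Among these, a probe of Slc25a31 was above background in 8 arrays and a probe of Slc25a40 in 2, and the other probes in none.

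**Figure D1:**
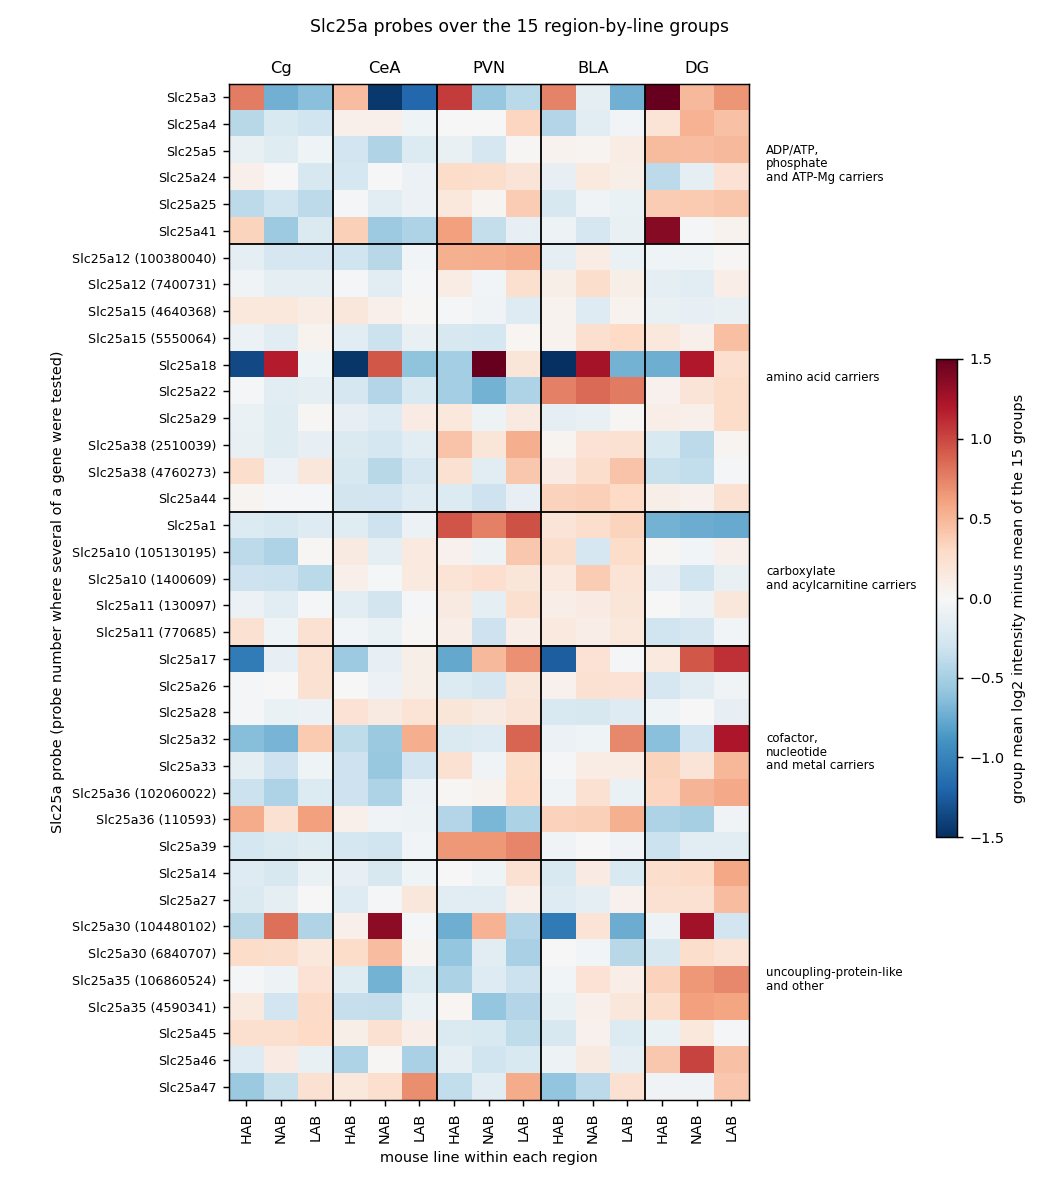
Rows are the 38 tested Slc25a probes and columns the 15 region-by-line groups, with HAB, NAB and LAB side by side inside each region. Colour gives the group mean log2 intensity minus the mean of the 15 groups, with the ends of the scale capped. In most rows the colour changes between regions, and in the rows of Slc25a18, Slc25a3, Slc25a17, Slc25a30 and Slc25a32 it changes between the lines of each region.

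The first question was how much of the variation among members lay between regions and how much between lines. For 32 of the 38 tested probes the averages of the 5 regions spread more widely than the averages of the 3 lines. A range over 5 averages tends to be wider than a range over 3, and the region range also holds the hybridisation batch. The array as a whole leaned the same way. Of all 22083 tested probes, limma gave 12435 to 15630 an adjusted p under 0.05 in a region comparison and 1378 to 2621 in a line comparison. The range over regions was 0.24 to 1.65 log2 units (median 0.64), and the range over lines was 0.01 to 2.47 (median 0.21). The 6 probes that spread more widely over lines belonged to Slc25a17, Slc25a18, Slc25a30 (probe 104480102), Slc25a32, Slc25a41 and Slc25a47.

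Line differences averaged over the 5 regions were taken from a limma fit of all arrays with the mouse as a random block, and a probe was called at an adjusted p of 0.05 over 22083 probes. HAB against LAB, 2 of 38 member probes (5.26%) were higher and 7 (18.4%) were lower, where 2.67% and 4.50% of all tested probes were higher and lower. HAB against NAB, 2 (5.26%) were higher and 3 (7.89%) lower, with a background of 3.27% and 2.97%. NAB against LAB, 3 (7.89%) were higher and 12 (31.6%) lower, with a background of 2.87% and 9.00%. The median log2 difference of the members was -0.10 for HAB minus LAB, 0.02 for HAB minus NAB and -0.11 for NAB minus LAB, and that of all tested probes was -0.04, 0.00 and -0.03. In total 18 probes of 17 genes were called in at least 1 of these comparisons. Of the 38 tested probes, 6 would have failed the filter on dim probes without the arrays of 1 line, among them the called probes of Slc25a32 (LAB), Slc25a41 (HAB) and Slc25a46 (NAB). These 3 passed through the line in which they were high, so the counts over tested probes are not independent of the filter. With no filter, all 68 probes were tested, and 2 were higher and 7 lower for HAB against LAB, 2 higher and 3 lower for HAB against NAB, and 3 higher and 9 lower for NAB against LAB. Of all 46643 probes, 1430 (576 higher), 1325 (663 higher) and 2114 (592 higher) were called in these comparisons. Probe sequences were not used here, and whether the lines differ in sequence under a probe was not tested. The 3 comparisons share their groups and are not independent of each other. In what follows, arrays of 2 lines are said to be apart where their values did not overlap. The share of all tested probes that were apart was not counted. With 3 arrays a line, as in the DG, separation is reached more easily than in the larger groups of the other regions. It is given as a description and not as a test.

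**Figure D2:**
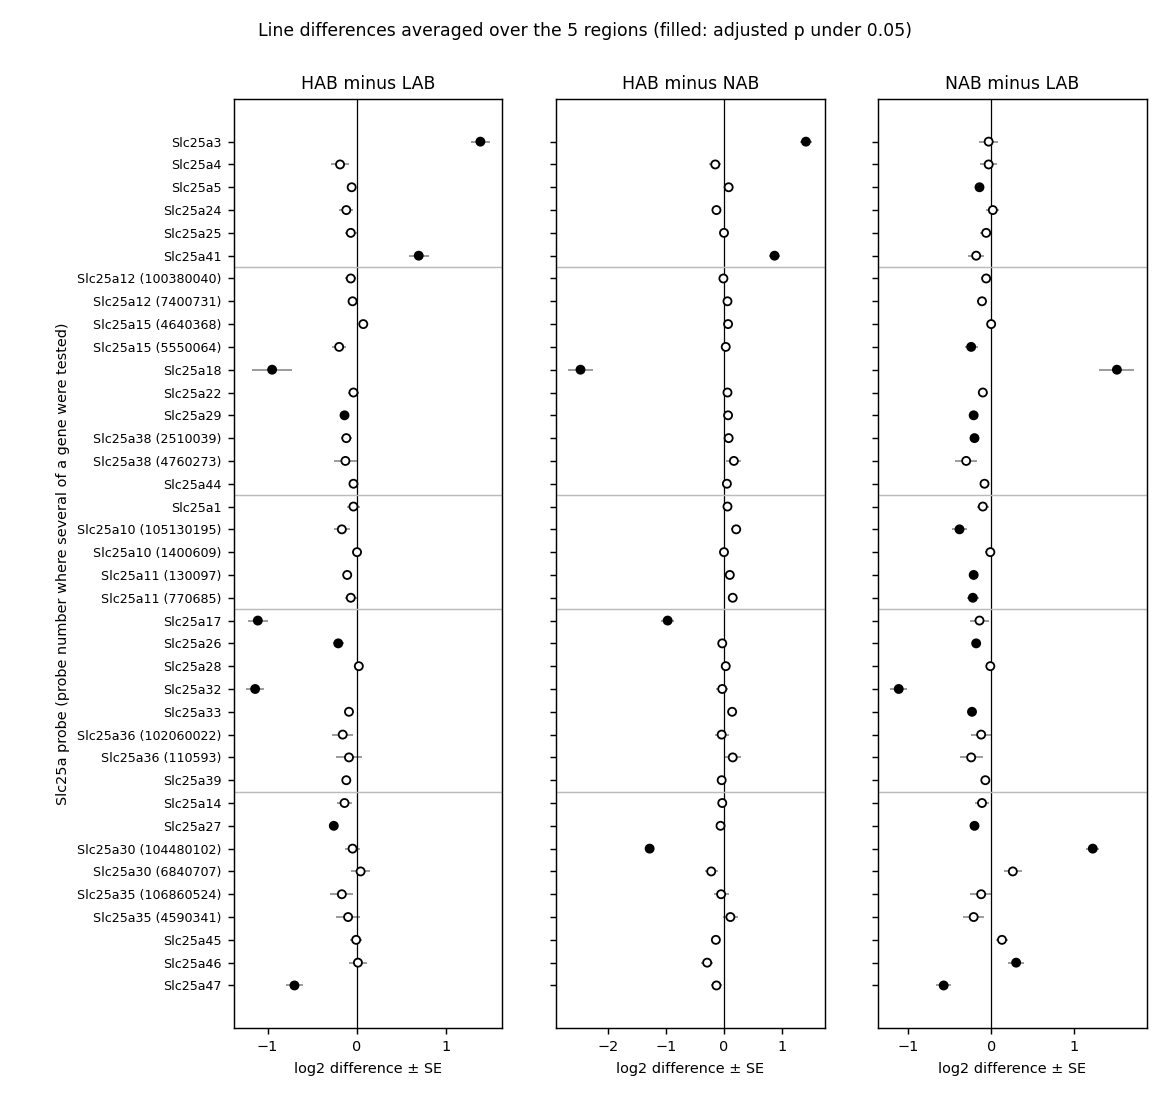
Each point is the log2 difference of 1 Slc25a probe averaged over the 5 regions, on the horizontal axis, with its standard error as a bar, and the 3 panels are the 3 comparisons of lines. Filled points had an adjusted p under 0.05. Most points lie near 0, and Slc25a18 lies farthest out, at -2.47 for HAB minus NAB.

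Among the amino acid carriers, 10 probes of 7 genes were tested. HAB against LAB, 2 were lower, HAB against NAB, 1 was lower, and NAB against LAB, 1 was higher and 3 were lower. For the counts of all carrier groups and gene lists, the background shares higher and lower were those given above. They were 2.67% and 4.50% (HAB against LAB), 3.27% and 2.97% (HAB against NAB), and 2.87% and 9.00% (NAB against LAB). Counts this small were not tested against these shares. Slc25a18 showed the largest line difference of the family, with low intensities in HAB mice and high intensities in NAB mice. In the Cg, Slc25a18 read 19.2, 19.5, 20.9, 22.8 and 23.5 in HAB arrays, 95.3 to 145 (median 127) in NAB arrays, and 22.8 to 197 (median 31.1) in LAB arrays. In the CeA, Slc25a18 read 15.1 to 32.4 (median 19.0) in HAB arrays, 65.6 to 128 (median 108) in NAB arrays, and 16.8, 26.5, 27.6, 29.1 and 158 in LAB arrays. In the PVN, Slc25a18 read 28.9 to 48.9 (median 39.8) in HAB arrays, 189, 221, 236, 237 and 274 in NAB arrays, and 40.7, 41.3, 43.1, 43.7 and 271 in LAB arrays. Every HAB array was below every NAB array of its region, while the LAB arrays reached from the HAB level to the NAB level. In the BLA, Slc25a18 read 16.1, 16.4, 16.6, 16.8 and 22.4 in HAB arrays, 97.6 to 156 (median 139) in NAB arrays, and 19.5, 21.0, 21.3, 29.1 and 154 in LAB arrays. In the DG, Slc25a18 read 29.0, 29.2 and 40.2 in HAB arrays, 103, 121 and 152 in NAB arrays, and 37.9, 44.3 and 159 in LAB arrays. HAB and NAB arrays were again apart, and in each region 1 or 2 LAB arrays reached the NAB level or lay above it.

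Averaged over regions, Slc25a18 was lower in HAB than in NAB mice by 2.47 ± 0.21 log2 units (SE), which is 5.53-fold (adjusted p = 3.21e-15), and the groups did not overlap in any of the 5 regions. It was also lower in HAB than in LAB mice, by 0.95 ± 0.22 log2 units (adjusted p = 0.00110), and higher in NAB than in LAB mice, by 1.51 ± 0.21 (adjusted p = 8.93e-08). These comparisons with LAB mice overlapped in all 5 regions. Inside regions, HAB against NAB was called in the Cg, CeA, PVN and BLA, with log2 differences of -2.54 ± 0.45, -2.40 ± 0.38, -2.60 ± 0.38 and -2.87 ± 0.39. NAB against LAB was called in the CeA (1.54 ± 0.40), the PVN (1.91 ± 0.39) and the BLA (1.95 ± 0.39), and HAB against LAB in no region. The CeA call for NAB against LAB was at the threshold (adjusted p = 0.0489) and was lost with no filter (0.108), with median centring (0.0503) and without any 1 of 14 mice (adjusted p up to 0.126). The PVN call was lost without LAB mouse 07 (0.0504).

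The spread of Slc25a18 in the LAB line followed the mouse number. LAB mouse 06 read 154 to 271 in its 4 regions and LAB mouse 16 read 159 to 165 in its 2 regions. The other 6 LAB mice read 16.8 to 44.3. All HAB arrays lay between 15.1 and 48.9 and all NAB arrays between 65.6 and 274. NAB mouse 15 gave the lowest NAB value in each of its 4 regions, 65.6 to 103. Without LAB mouse 06 the log2 difference was -0.55 for HAB minus LAB (adjusted p = 0.00491) and 1.92 for NAB minus LAB. Leaving out LAB mouse 16 gave -0.75 (adjusted p = 0.0121) and 1.71. No fit left out both mice. The random block used 1 correlation for all probes, 0.0142, so that arrays of the same mouse entered almost as independent. As the Slc25a18 values of LAB mice followed the mouse, the limma p-values of both comparisons with LAB mice are likely too small. That of HAB against NAB may be too small as well, as NAB mouse 15 was lowest in each of its regions. At the Slc25a30 probe described further on, no LAB array reached the lowest NAB array of its region. Why LAB mice 06 and 16 read at the NAB level at Slc25a18 was not tested. Summed intensities of the astrocyte markers ran from 1351 to 2410.5 in HAB, 1088 to 2208 in NAB and 1248 to 2252 in LAB arrays, and those of the neuronal markers from 1426 to 3221, 1548 to 3177 and 1566 to 3146. The part of cell composition in the Slc25a18 result was not tested.

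**Figure D3:**
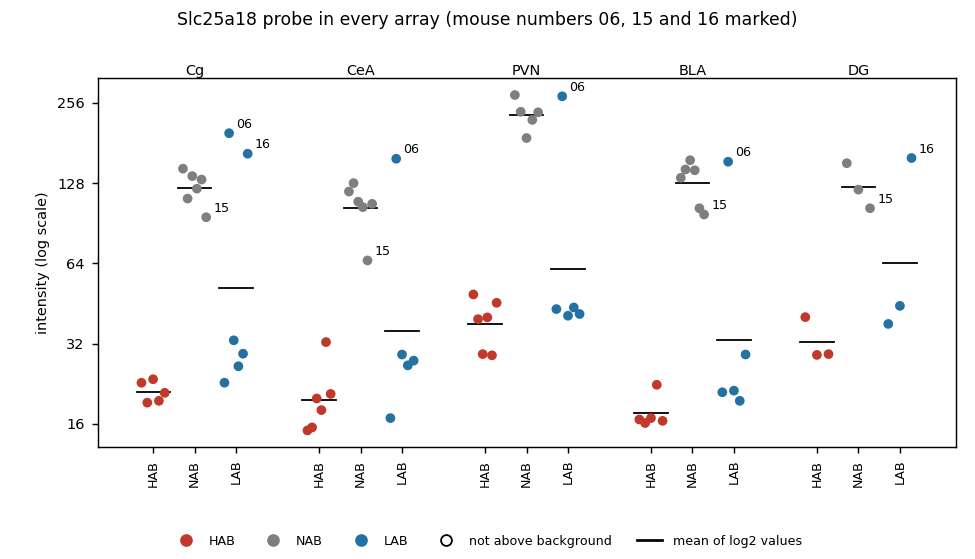
Each point is the Slc25a18 intensity of 1 array on a log axis, in HAB, NAB and LAB mice of each region, and the bars mark the group means. Mouse numbers 06, 15 and 16 are marked. HAB points lie below 49 and NAB points above 65 in every region, and the marked LAB points of mice 06 and 16 lie between 154 and 271.

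Line differences of other amino acid carriers were smaller. Slc25a29, which carries basic amino acids, was lower in HAB than in LAB mice by 0.14 ± 0.04 log2 units (adjusted p = 0.0119) and lower in NAB than in LAB mice by 0.21 ± 0.04 (adjusted p = 2.34e-05). Slc25a38, a glycine carrier, was lower in NAB than in LAB mice by 0.20 ± 0.06 (adjusted p = 0.0178) with probe 2510039, and was not called with probe 4760273 (-0.30 ± 0.13, adjusted p = 0.121). Slc25a15, the ornithine carrier of the urea cycle, was lower in NAB than in LAB mice with probe 5550064, by 0.24 ± 0.08 (adjusted p = 0.0313). The other Slc25a15 probe, 4640368, gave 0.00 ± 0.05 for NAB minus LAB (adjusted p = 0.984). The Slc25a15 intensities that follow, in all regions, are those of probe 5550064. In the Cg they were 18.4, 19.1, 21.9, 22.0 and 23.0 in HAB arrays, 15.4 to 22.8 (median 20.6) in NAB arrays, and 19.5 to 26.6 (median 23.3) in LAB arrays. CeA intensities of Slc25a15 were 18.6 to 21.8 (median 19.1) in HAB arrays, 15.1 to 20.8 (median 18.0) in NAB arrays, and 18.7, 19.4, 19.9, 19.9 and 24.9 in LAB arrays. PVN intensities of Slc25a15 were 9.01 to 27.1 (median 20.9) in HAB arrays, 13.1, 17.7, 18.4, 22.0 and 22.1 in NAB arrays, and 17.4, 20.9, 23.0, 23.6 and 29.7 in LAB arrays. NAB and LAB arrays overlapped in each of these regions. BLA intensities of Slc25a15 were 16.2, 22.7, 23.8, 25.6 and 27.9 in HAB arrays, 24.7 to 28.4 (median 25.4) in NAB arrays, and 24.7, 24.9, 28.4, 28.9 and 30.1 in LAB arrays. DG intensities of Slc25a15 were 22.1, 25.6 and 26.0 in HAB arrays, 19.5, 21.5 and 30.3 in NAB arrays, and 28.3, 31.0 and 31.4 in LAB arrays. HAB and LAB arrays were apart in the DG, with 3 arrays a line. Averaged over the 5 regions, HAB against LAB was not called for this probe (-0.20 ± 0.08, adjusted p = 0.112).

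Carriers of ADP, ATP and phosphate were represented by 6 tested probes of 6 genes. HAB against LAB and HAB against NAB, 2 probes each were higher and none was lower. The main member was Slc25a3, the phosphate carrier that supplies ATP synthesis, measured with probe 670112. HAB mice had the highest intensities in every region. In the Cg, Slc25a3 read 86.8, 89.9, 124, 125 and 127 in HAB arrays, 32.1 to 52.9 (median 38.0) in NAB arrays, and 34.2 to 49.2 (median 41.7) in LAB arrays. In the CeA, Slc25a3 read 57.2 to 124 (median 98.1) in HAB arrays, 15.2 to 36.7 (median 23.6) in NAB arrays, and 14.0, 23.7, 33.6, 37.4 and 43.8 in LAB arrays. In the PVN, Slc25a3 read 94.6 to 181 (median 133) in HAB arrays, 33.3, 37.8, 46.3, 47.1 and 53.6 in NAB arrays, and 35.6, 48.7, 50.8, 53.0 and 58.2 in LAB arrays. No NAB or LAB array reached the lowest HAB array of these regions. In the BLA, Slc25a3 read 71.1, 93.3, 104, 139 and 143 in HAB arrays, 42.0 to 69.8 (median 59.2) in NAB arrays, and 27.2, 35.3, 36.5, 48.7 and 51.3 in LAB arrays. In the DG, Slc25a3 read 178, 199 and 224 in HAB arrays, 62.3, 87.3 and 133 in NAB arrays, and 85.3, 89.1 and 136 in LAB arrays. HAB arrays were apart from those of the other lines here too, by the narrowest margin in the BLA (71.1 in HAB and 69.8 in NAB mice).

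Averaged over regions, Slc25a3 was higher in HAB than in LAB mice by 1.38 ± 0.11 log2 units, or 2.61-fold (adjusted p = 3.35e-16), and higher in HAB than in NAB mice by 1.41 ± 0.11, or 2.66-fold (adjusted p = 8.90e-17). NAB and LAB mice differed by -0.03 ± 0.11 (adjusted p = 0.924). Inside regions both comparisons with HAB were called in the Cg, CeA, PVN and BLA. HAB minus LAB was 1.40 ± 0.14, 1.64 ± 0.31, 1.45 ± 0.17 and 1.46 ± 0.20 there, and HAB minus NAB was 1.48 ± 0.14, 1.91 ± 0.29, 1.62 ± 0.17 and 0.88 ± 0.19. The other Slc25a3 probe was above background in no array, so that the result rests on 1 probe. Between lines, erythrocyte markers moved the same way, with summed intensities of 1806 to 6272 in HAB, 1359.7 to 3980.4 in NAB and 1069 to 4104 in LAB arrays. Of 11 erythrocyte probes, 10 were higher in HAB than in LAB mice and 9 higher in HAB than in NAB mice, and all HAB sums were above those of the other line in 3 of 5 regions in either comparison. Between regions, the median log2 difference of the erythrocyte probes was -0.41 in the CeA and -0.30 in the DG, where Slc25a3 gave -0.91 and 1.16. It was 0.54 in the PVN and 0.18 in the Cg, where Slc25a3 gave 0.04 (not called) and -0.24. In the BLA neither was called. The part of erythrocytes in the Slc25a3 result was not tested.

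Slc25a41, related to the ATP-Mg and phosphate carriers, was above background in the DG arrays of HAB mice alone. In the DG, Slc25a41 read 9.35, 10.8 and 11.2 in HAB arrays, 3.21, 3.37 and 5.79 in NAB arrays, and 3.27, 4.39 and 5.13 in LAB arrays. HAB arrays were thus apart from both other lines. HAB arrays were at least 1.35-fold above LAB and at least 1.32-fold above NAB arrays in the DG, with adjusted p values of 0.0732 and 0.0636 in that region. The probe thus passed the filter through HAB arrays alone. Tested with no filter, the log2 difference averaged over regions was 0.69 ± 0.10 for HAB minus LAB (adjusted p = 6.44e-07) and 0.87 ± 0.10 for HAB minus NAB (adjusted p = 6.22e-10), but these averages contain 4 regions in which every array was at background. There, intensities ran from 3.01 to 7.72 in HAB, 1.86 to 4.93 in NAB and 2.24 to 5.75 in LAB arrays, without a fold. Slc25a5, an ADP/ATP exchanger, was lower in NAB than in LAB mice by 0.14 ± 0.04 (adjusted p = 0.0258). Slc25a4, Slc25a24 and Slc25a25 were not called in any line comparison.

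**Figure D4:**
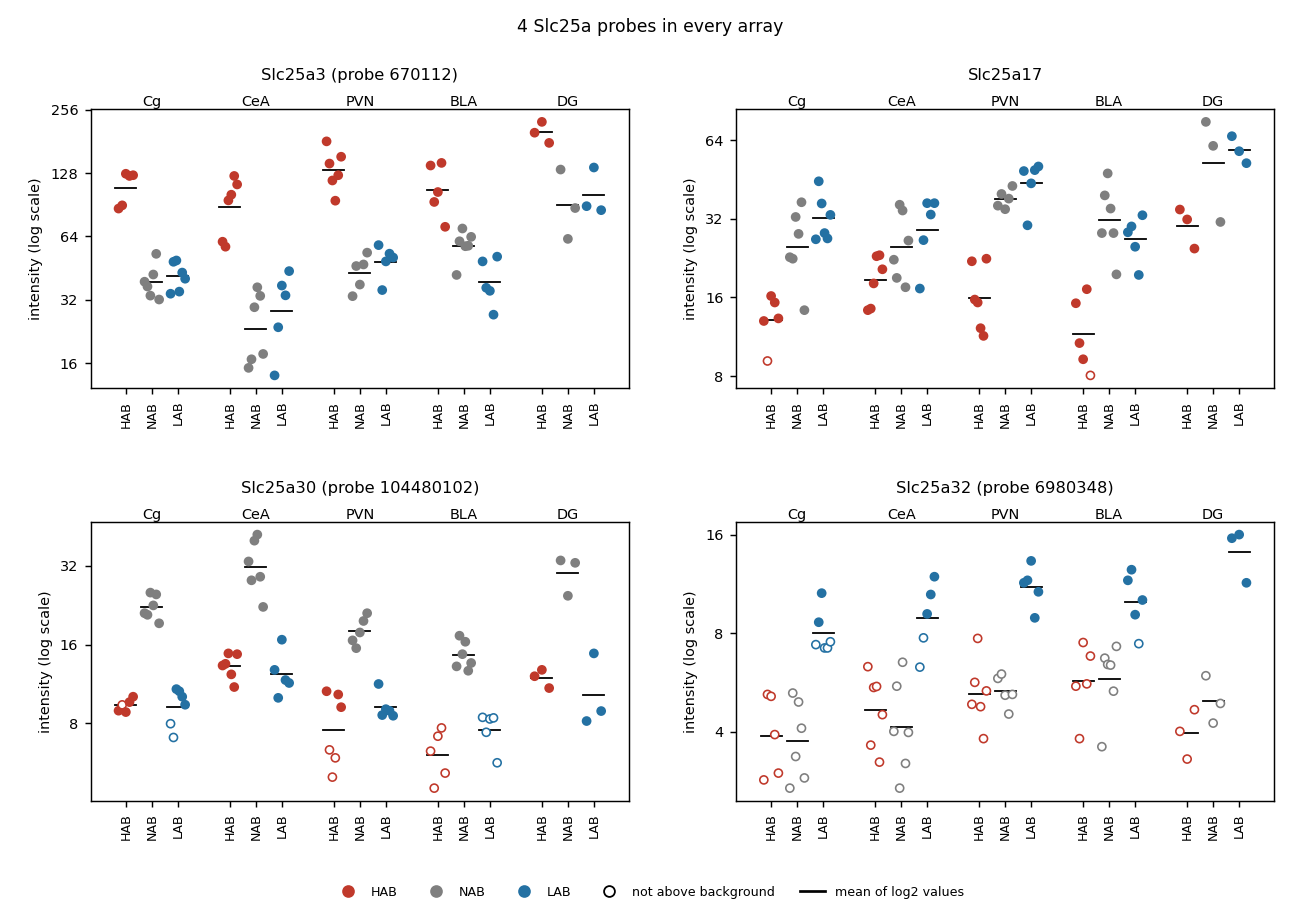
Each point is the intensity of 1 array on a log axis for 1 of 4 Slc25a probes, in HAB, NAB and LAB mice of each region, with group means as bars and open points for arrays not above background. HAB points are highest for Slc25a3 and lowest for Slc25a17, NAB points are highest for Slc25a30, and LAB points are highest for Slc25a32.

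Carriers of cofactors, nucleotides and metals gave 8 tested probes of 7 genes. HAB against LAB, 3 were lower, HAB against NAB, 1 was lower, and NAB against LAB, 3 were lower. Slc25a17, the peroxisomal carrier, was low in HAB mice. In the Cg, Slc25a17 read 9.14, 13.0, 13.3, 15.3 and 16.2 in HAB arrays, 14.3 to 37.0 (median 25.4) in NAB arrays, and 26.7 to 44.5 (median 30.6) in LAB arrays. In the CeA, Slc25a17 read 14.3 to 23.2 (median 19.3) in HAB arrays, 17.5 to 36.2 (median 24.4) in NAB arrays, and 17.3, 26.5, 33.2, 36.7 and 36.7 in LAB arrays. In the PVN, Slc25a17 read 11.4 to 22.5 (median 15.5) in HAB arrays, 34.8, 35.9, 38.2, 39.8 and 42.7 in NAB arrays, and 30.2, 43.7, 48.7, 49.1 and 50.7 in LAB arrays. HAB arrays lay below all LAB arrays in the Cg and PVN, and overlapped with them in the CeA. In the BLA, Slc25a17 read 8.05, 9.28, 10.7, 15.2 and 17.2 in HAB arrays, 19.6 to 47.7 (median 31.6) in NAB arrays, and 19.5, 25.0, 28.4, 29.9 and 33.0 in LAB arrays. In the DG, Slc25a17 read 24.6, 31.8 and 34.7 in HAB arrays, 31.1, 60.8 and 75.1 in NAB arrays, and 52.2, 58.0 and 66.2 in LAB arrays. HAB arrays were again below all LAB arrays, and below all NAB arrays in the BLA but not in the DG.

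Averaged over regions, Slc25a17 was lower in HAB than in LAB mice by 1.11 ± 0.11 log2 units (2.16-fold, adjusted p = 1.68e-12) and lower in HAB than in NAB mice by 0.97 ± 0.11 (1.97-fold, adjusted p = 1.16e-10). NAB minus LAB was -0.14 ± 0.11 (adjusted p = 0.503). HAB against LAB was apart in 4 regions and HAB against NAB in 2. Inside regions, both comparisons were called in the Cg (HAB minus LAB -1.29 ± 0.21, HAB minus NAB -0.93 ± 0.21), the PVN (-1.45 ± 0.18 and -1.26 ± 0.18) and the BLA (-1.21 ± 0.24 and -1.46 ± 0.23). NAB mouse 15, the lowest of its line at Slc25a18, was also the lowest NAB mouse at Slc25a17 in its 4 regions (14.3 to 31.1). Arrays of the same mouse entered the averaged fit almost as independent. The limma p-value of HAB against NAB averaged over regions may thus be too small at Slc25a17. Other peroxisomal genes gave 19 tested probes, of which 1 was lower in HAB than in LAB mice (Abcd2, a fatty acid transporter, -0.32 ± 0.10, adjusted p = 0.0431), limma called none for HAB against NAB (1 with an unadjusted p under 0.05), and 1 was lower in NAB than in LAB mice (Pex5, an import receptor, -0.30 ± 0.09, adjusted p = 0.0187).

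Slc25a32, a carrier of folate and FAD, was detected in the LAB line only. In the Cg, Slc25a32 read 2.85, 2.99, 3.92, 5.13 and 5.20 in HAB arrays, 2.69 to 5.25 (median 3.73) in NAB arrays, and 7.21 to 10.6 (median 7.46) in LAB arrays. In the CeA, Slc25a32 read 3.23 to 6.32 (median 4.98) in HAB arrays, 2.69 to 6.52 (median 3.99) in NAB arrays, and 6.30, 7.74, 9.16, 10.5 and 11.9 in LAB arrays. In the PVN, Slc25a32 read 3.81 to 7.71 (median 5.09) in HAB arrays, 4.53, 5.17, 5.20, 5.82 and 6.00 in NAB arrays, and 8.91, 10.7, 11.4, 11.6 and 13.3 in LAB arrays. All HAB and NAB arrays of this probe (6980348) were at background, whereas 17 LAB arrays were above it. In the BLA, Slc25a32 read 3.81, 5.51, 5.60, 6.81 and 7.49 in HAB arrays, 3.60 to 7.29 (median 6.41) in NAB arrays, and 7.43, 9.11, 10.1, 11.6 and 12.5 in LAB arrays. In the DG, Slc25a32 read 3.30, 4.01 and 4.67 in HAB arrays, 4.25, 4.88 and 5.93 in NAB arrays, and 11.4, 15.6 and 16.0 in LAB arrays. HAB arrays lay below all LAB arrays in 3 regions and NAB arrays below all LAB arrays in 4.

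The probe passed the filter through LAB arrays alone. Tested with no filter, the log2 difference averaged over regions was -1.14 ± 0.10 for HAB minus LAB (adjusted p = 4.33e-15) and -1.11 ± 0.10 for NAB minus LAB (adjusted p = 1.31e-14). Where dim values are replaced by the background level, Slc25a32 was at least 1.16-fold lower in HAB and at least 1.20-fold lower in NAB than in LAB mice. HAB against LAB was called in the PVN (at least 1.30-fold lower, adjusted p = 2.17e-04) and the DG (at least 1.55-fold lower, adjusted p = 0.00442). NAB against LAB was called in the same regions (at least 1.25-fold and 1.79-fold lower, adjusted p = 5.74e-04 and 0.0124), and both regions were those in which LAB arrays passed the filter. The DG call for NAB against LAB was lost without LAB mouse 10, LAB mouse 14 or NAB mouse 15 (adjusted p up to 0.0712). The second probe of this gene was above background in no array. The sum of endothelial markers differed between the same lines, with intensities of 143 to 267 in HAB, 136 to 282 in NAB and 227 to 398 in LAB arrays. In all 5 regions every HAB and every NAB sum was below every LAB sum. Of 5 endothelial probes 2 were lower in HAB than in LAB and 2 lower in NAB than in LAB mice, the largest for Slco1c1 (-2.52 ± 0.12 and -2.38 ± 0.12). The median log2 difference of the 5 probes was -0.22 for HAB minus LAB and -0.15 for NAB minus LAB. Slco1c1 is part of the sums, and sums without it are not given here. The part of endothelial cells in the Slc25a32 result was not tested.

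Slc25a26, which imports the methyl donor S-adenosylmethionine, was lower in HAB than in LAB mice by 0.21 ± 0.06 log2 units (adjusted p = 0.00671) and lower in NAB than in LAB mice by 0.18 ± 0.05 (adjusted p = 0.0178). Slc25a33, a pyrimidine nucleotide carrier, was lower in NAB than in LAB mice by 0.23 ± 0.05 (adjusted p = 0.00107). In the Cg, Slc25a33 read 60.1, 60.5, 68.4, 71.2 and 74.7 in HAB arrays, 55.2 to 62.6 (median 60.5) in NAB arrays, and 62.9 to 76.1 (median 73.1) in LAB arrays. In the CeA, Slc25a33 read 48.9 to 70.3 (median 60.9) in HAB arrays, 41.5 to 59.1 (median 50.4) in NAB arrays, and 54.5, 58.4, 61.7, 63.0 and 66.1 in LAB arrays. NAB arrays were below all LAB arrays in the Cg and overlapped in the CeA. In the PVN, Slc25a33 read 69.5 to 107 (median 86.5) in HAB arrays, 52.0, 71.3, 71.8, 79.2 and 90.1 in NAB arrays, and 76.5, 81.9, 89.4, 98.1 and 104 in LAB arrays. In the BLA, Slc25a33 read 59.5, 62.4, 73.4, 84.2 and 89.5 in HAB arrays, 70.1 to 87.6 (median 82.0) in NAB arrays, and 70.6, 79.7, 80.8, 81.6 and 87.7 in LAB arrays. In the DG, Slc25a33 read 91.9, 93.3 and 94.6 in HAB arrays, 79.6, 82.9 and 91.2 in NAB arrays, and 90.3, 111 and 114 in LAB arrays. The lines overlapped in these 3 regions for NAB against LAB. Slc25a28, Slc25a36 and Slc25a39 were not called between lines.

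Of the uncoupling-protein-like and other members, 9 probes of 7 genes were tested. HAB against LAB, 2 were lower, HAB against NAB, 1 was lower, and NAB against LAB, 2 were higher and 2 lower. Slc25a30, a homologue of uncoupling proteins first described in kidney, was high in NAB mice with probe 104480102. In the Cg, Slc25a30 read 8.82, 8.93, 9.40, 9.63 and 10.1 in HAB arrays, 19.3 to 25.3 (median 21.9) in NAB arrays, and 7.05 to 10.8 (median 9.76) in LAB arrays. In the CeA, Slc25a30 read 11.0 to 14.8 (median 13.4) in HAB arrays, 22.3 to 42.2 (median 31.2) in NAB arrays, and 10.0, 11.4, 11.7, 12.8 and 16.7 in LAB arrays. In the PVN, Slc25a30 read 4.97 to 10.6 (median 7.77) in HAB arrays, 15.5, 16.6, 17.8, 19.7 and 21.1 in NAB arrays, and 8.54, 8.59, 8.92, 9.05 and 11.3 in LAB arrays. Every NAB array was above all HAB and LAB arrays of these regions. In the BLA, Slc25a30 read 4.51, 5.15, 6.25, 7.13 and 7.67 in HAB arrays, 12.7 to 17.3 (median 14.2) in NAB arrays, and 5.64, 7.38, 8.30, 8.38 and 8.42 in LAB arrays. In the DG, Slc25a30 read 10.9, 12.1 and 12.8 in HAB arrays, 24.6, 32.9 and 33.6 in NAB arrays, and 8.15, 8.90 and 14.8 in LAB arrays. NAB arrays were apart in these regions as well, and in the BLA all HAB and LAB arrays were at background.

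HAB mice were lower than NAB mice at this probe by 1.28 ± 0.08 log2 units (2.42-fold, adjusted p = 3.25e-22), and NAB mice were higher than LAB mice by 1.22 ± 0.08 (2.33-fold, adjusted p = 4.44e-21). In the BLA, where HAB and LAB arrays were at background, NAB mice were at least 1.65-fold above HAB and at least 1.63-fold above LAB mice. HAB minus LAB was -0.05 ± 0.08 (adjusted p = 0.799). Inside regions, HAB against NAB was called in 4 regions, with log2 differences from -1.27 to -1.25, and missed the threshold in the DG (-1.34 ± 0.23, adjusted p = 0.0517). NAB against LAB was called in all 5 (0.95 to 1.55). The other probe of the gene, 6840707, was tested in 3 regions and was not called: it gave -0.22 for HAB minus NAB and 0.26 for NAB minus LAB. It was above background in 17 of 75 arrays and would have failed the filter without NAB arrays. The 2 probes of Slc25a30 thus gave differences of unlike size, but the second lay near background, where differences are hard to measure.

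Slc25a47, known as a liver carrier, was high in LAB mice. In the Cg, Slc25a47 read 6.85, 8.81, 12.3, 14.0 and 15.2 in HAB arrays, 9.18 to 16.1 (median 14.0) in NAB arrays, and 13.5 to 23.1 (median 20.1) in LAB arrays. In the CeA, Slc25a47 read 13.5 to 26.7 (median 16.7) in HAB arrays, 15.4 to 23.0 (median 19.2) in NAB arrays, and 24.0, 25.6, 25.7, 26.5 and 28.5 in LAB arrays. In the PVN, Slc25a47 read 9.41 to 16.8 (median 13.0) in HAB arrays, 8.41, 15.7, 16.5, 16.5 and 16.8 in NAB arrays, and 20.5, 21.0, 21.6, 25.5 and 31.3 in LAB arrays. LAB arrays overlapped with both other lines in the Cg, with HAB arrays in the CeA and with neither in the PVN. In the BLA, Slc25a47 read 7.95, 10.4, 11.1, 11.8 and 12.6 in HAB arrays, 9.87 to 15.6 (median 12.3) in NAB arrays, and 16.5, 18.2, 18.9, 19.0 and 21.4 in LAB arrays. In the DG, Slc25a47 read 13.9, 15.6 and 17.1 in HAB arrays, 13.8, 13.9 and 19.1 in NAB arrays, and 19.7, 21.8 and 22.3 in LAB arrays. LAB arrays were above all HAB and NAB arrays in both regions. Averaged over regions, Slc25a47 was lower in HAB than in LAB mice by 0.70 ± 0.09 log2 units (1.63-fold, adjusted p = 1.68e-09) and lower in NAB than in LAB mice by 0.57 ± 0.09 (1.48-fold, adjusted p = 5.72e-07). HAB against LAB was called in the PVN (-0.92 ± 0.19), the BLA (-0.82 ± 0.13) and the Cg (-0.77 ± 0.20), and NAB against LAB in the BLA (-0.62 ± 0.13). The Cg call lay at the threshold and was lost under other settings, with an adjusted p of up to 0.140. The endothelial sums given for Slc25a32 separate the same lines. They include Slco1c1, and the median log2 difference of the 5 endothelial probes was -0.22 for HAB minus LAB and -0.15 for NAB minus LAB. The part of endothelial cells in the Slc25a47 result was not tested either.

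Slc25a27, an uncoupling protein homologue known from brain, was lower in HAB than in LAB mice by 0.26 ± 0.05 log2 units (adjusted p = 7.20e-05) and lower in NAB than in LAB mice by 0.20 ± 0.05 (adjusted p = 0.00261). In the Cg, Slc25a27 read 69.3, 71.8, 76.6, 84.9 and 85.5 in HAB arrays, 72.3 to 104 (median 78.9) in NAB arrays, and 81.1 to 97.3 (median 89.9) in LAB arrays. In the CeA, Slc25a27 read 72.3 to 83.2 (median 78.4) in HAB arrays, 75.8 to 99.8 (median 90.2) in NAB arrays, and 90.7, 94.5, 102, 105 and 113 in LAB arrays. In the PVN, Slc25a27 read 72.0 to 94.3 (median 79.7) in HAB arrays, 63.7, 74.8, 81.8, 84.1 and 102 in NAB arrays, and 77.7, 86.7, 95.7, 103 and 111 in LAB arrays. HAB arrays were below all LAB arrays in the CeA, the single region with a call (-0.36 ± 0.09, adjusted p = 0.0419, lost with no filter at 0.265, with median centring at 0.0612 and without any 1 of 11 mice), and overlapped with them in the Cg and PVN. In the BLA, Slc25a27 read 70.0, 73.3, 82.2, 83.0 and 84.0 in HAB arrays, 66.6 to 91.4 (median 86.8) in NAB arrays, and 86.7, 91.6, 93.7, 96.7 and 99.0 in LAB arrays. In the DG, Slc25a27 read 95.7, 109 and 112 in HAB arrays, 94.5, 109 and 113 in NAB arrays, and 116, 117 and 140.5 in LAB arrays. HAB and LAB arrays were apart in both. Slc25a46, an outer membrane protein involved in mitochondrial fission, was higher in NAB than in LAB mice by 0.30 ± 0.10, with 5 of 75 arrays above background. It passed the filter in the DG alone and through NAB arrays, and had an adjusted p of 0.0488 when tested with no filter. In the DG, Slc25a46 read 6.37, 7.45 and 7.71 in HAB arrays, 9.40, 11.6 and 12.1 in NAB arrays, and 6.39, 6.57 and 9.45 in LAB arrays. NAB and LAB arrays overlapped by 1 array. In the other regions intensities ran from 2.18 to 8.76 in HAB, 2.77 to 8.45 in NAB and 3.12 to 6.71 in LAB arrays, and no fold is given. Slc25a14, Slc25a35 and Slc25a45 were not called between lines.

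Carboxylate carriers gave 5 tested probes of 3 genes, and 3 of them were lower in NAB than in LAB mice, while limma called none for HAB against LAB (1 with an unadjusted p under 0.05) and none for HAB against NAB (3). Slc25a10, which exchanges dicarboxylates for phosphate, was lower with probe 105130195 by 0.38 ± 0.09 log2 units (adjusted p = 0.00237, with 27 of 75 arrays above background), but not called with probe 1400609. Probe 1400609, above background in all 75 arrays, gave -0.01 ± 0.06 for NAB minus LAB (adjusted p = 0.960). Probe 105130195 passed the filter in the PVN and BLA alone, and all its NAB arrays were at background in the Cg and CeA. The Slc25a10 intensities that follow, in all regions, are those of probe 105130195. In the Cg, Slc25a10 read 3.97, 5.53, 5.96, 7.06 and 7.23 in HAB arrays, 4.07 to 8.08 (median 4.98) in NAB arrays, and 5.75 to 11.4 (median 7.29) in LAB arrays. In the CeA, Slc25a10 read 5.37 to 10.5 (median 8.98) in HAB arrays, 3.83 to 8.81 (median 7.34) in NAB arrays, and 7.89, 8.15, 8.27, 9.07 and 9.11 in LAB arrays. In the PVN, Slc25a10 read 5.83 to 9.74 (median 8.18) in HAB arrays, 5.88, 5.96, 7.13, 8.90 and 8.92 in NAB arrays, and 9.12, 9.46, 9.53, 10.8 and 11.9 in LAB arrays. NAB arrays were below all LAB arrays in the PVN and overlapped in the Cg and CeA. In the BLA, Slc25a10 read 7.46, 7.69, 8.71, 10.6 and 12.6 in HAB arrays, 4.01 to 8.43 (median 7.04) in NAB arrays, and 6.45, 9.13, 9.68, 10.9 and 10.9 in LAB arrays. In the DG, Slc25a10 read 7.58, 7.72 and 7.81 in HAB arrays, 6.66, 6.78 and 8.97 in NAB arrays, and 7.65, 7.89 and 8.68 in LAB arrays. NAB and LAB arrays overlapped in both. Slc25a11, the oxoglutarate and malate carrier of the malate-aspartate shuttle, was lower in NAB than in LAB mice with both of its probes, by 0.21 ± 0.05 (adjusted p = 9.28e-04) and 0.22 ± 0.07 (adjusted p = 0.0396). Slc25a1, the citrate carrier, was not called between lines.

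Tests inside single regions called 7 member genes. HAB against LAB, 13 of 164 probe-by-region tests passed (5 probes). The Cg had 3 of them, the CeA 2, the PVN 4, the BLA 3 and the DG 1, where 2.47%, 2.22%, 2.09%, 2.25% and 0.761% of all probes passed. HAB against NAB, 15 passed (4 probes): 4, 3, 4, 4 and 0, with backgrounds of 2.13%, 2.06%, 1.71%, 3.05% and 0.659%. In the DG, with 3 arrays per line, limma called no member for HAB against NAB, and 6 had an unadjusted p under 0.05. With array weights limma called 4 there, Slc25a3 (adjusted p = 0.0118), Slc25a46 (0.0259), Slc25a41 (0.00315) and Slc25a30 (0.00195), and the count was 1 with 16 added before log2 and 2 with median centring or quantile normalisation. NAB against LAB, 11 passed (4 probes): 1, 2, 3, 3 and 2, with backgrounds of 2.51%, 2.63%, 1.69%, 3.39% and 0.627%. Whether the HAB to LAB difference varied between regions was tested as a line by region interaction. No member was called, where 0.258% of all probes were, and 2 members had an unadjusted p under 0.05: Slc25a41 (adjusted p = 0.761) and Slc25a24 (adjusted p = 0.789).

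Regions differed at most members. Each region was compared with the other 4, averaged over lines. In the Cg 5 members were higher and 22 lower (13.2% and 57.9%, background 22.5% and 43.3%). In the CeA 6 were higher and 21 lower (15.8% and 55.3%, background 19.3% and 39.7%). The PVN had 12 higher and 13 lower (31.6% and 34.2%, background 32.0% and 29.7%), and the BLA 13 higher and 9 lower (34.2% and 23.7%, background 29.8% and 26.5%). In the DG 18 were higher and 8 lower (47.4% and 21.1%, background 41.1% and 29.7%). These splits moved with the scaling: after quantile normalisation of the arrays, the Cg had 7 higher and 11 lower, the CeA 8 higher and 14 lower, and the DG 14 higher and 11 lower. After median centring the DG had 18 higher and 3 lower. The DG count is also not independent of the filter. Slc25a41, Slc25a46 and both probes of Slc25a35 passed the filter in the DG alone, and all were called higher there. The filter needed 3 arrays in the DG, fewer than in the other regions. With no filter, 20 of 68 probes were higher and 7 lower in the DG.

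By highest region, 15 probes peaked in the DG, 9 in the BLA, 7 in the PVN, 4 in the CeA and 3 in the Cg. The 15 include Slc25a41, Slc25a46 and both probes of Slc25a35, which passed the filter in the DG alone. Slc25a22, a glutamate carrier, was highest in the BLA. It averaged 254 ± 34.7 there (SD, n = 16), against 135 ± 15.3 in the Cg (n = 17), 117 ± 16.1 in the CeA (n = 17), 99.7 ± 15.7 in the PVN (n = 16) and 164 ± 14.3 in the DG (n = 9). The log2 difference was 0.99 ± 0.06 in the BLA (adjusted p = 4.08e-24) and -0.70 ± 0.06 in the PVN (adjusted p = 1.30e-17). Slc25a44 was also higher in the BLA (0.42 ± 0.04, adjusted p = 2.14e-14), as was Slc25a36, a pyrimidine nucleotide carrier, with probe 110593 (0.52 ± 0.13, adjusted p = 6.56e-04). Probe 102060022 of Slc25a36 was not called in the BLA (0.04 ± 0.12, adjusted p = 0.811). Lowest in the BLA were Slc25a30 (probe 104480102, -0.66 ± 0.07, adjusted p = 1.57e-11), Slc25a17 (-0.43 ± 0.11, adjusted p = 3.77e-04) and Slc25a18 (-0.45 ± 0.20, adjusted p = 0.0517).

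In the PVN, Slc25a1 and Slc25a39 were the most raised. Slc25a1 averaged 54.4 ± 6.84 in the PVN (n = 16), against 35.1 ± 3.96 in the BLA, 25.5 ± 2.64 in the CeA, 25.2 ± 2.64 in the Cg and 18.3 ± 5.66 in the DG. Its log2 difference was 1.11 ± 0.07 in the PVN (adjusted p = 2.16e-23) and -0.93 ± 0.08 in the DG (adjusted p = 1.95e-15). Slc25a39 averaged 228 ± 23.4 in the PVN, against 139 ± 14.9 in the BLA, 124 ± 17.6 in the CeA, 122 ± 9.35 in the Cg and 122 ± 9.73 in the DG (0.85 ± 0.04, adjusted p = 3.24e-27). Slc25a18 was higher in the PVN (0.73 ± 0.20, adjusted p = 0.00140) and lower in the CeA (-0.48 ± 0.20, adjusted p = 0.0353). The CeA call was lost with no filter (adjusted p = 0.0620), after quantile normalisation (-0.33, adjusted p = 0.139) and without any 1 of 11 mice. Lower in the PVN were Slc25a36 (probe 110593, -0.67 ± 0.13, adjusted p = 1.42e-05) and Slc25a30 (probe 6840707, -0.51 ± 0.11, adjusted p = 2.92e-05). Probe 102060022 of Slc25a36 was not called there (0.15 ± 0.12, adjusted p = 0.252). The Slc25a30 probe did not pass the filter in the PVN, where only 1 array, of a NAB mouse, was above background.

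The DG had the highest Slc25a3 and Slc25a17 intensities. Slc25a3 averaged 133 ± 57.0 in the DG (n = 9), against 79.8 ± 48.2 (PVN), 68.8 ± 34.6 (BLA), 61.1 ± 34.8 (Cg) and 50.1 ± 36.1 (CeA). Its log2 difference was 1.16 ± 0.13 in the DG (adjusted p = 1.12e-11) and -0.91 ± 0.10 in the CeA (adjusted p = 3.43e-11). These standard deviations contain the line difference. Slc25a17 was higher in the DG by 0.91 ± 0.13 (adjusted p = 1.27e-08) and Slc25a46, which passed the filter in the DG alone, by 0.77 ± 0.12. Lowest in the DG beside Slc25a1 were Slc25a36 with probe 110593 (-0.42 ± 0.17, adjusted p = 0.0213, lost with median centring at 0.0532) and Slc25a38 with probe 4760273 (-0.30 ± 0.15, adjusted p = 0.0697). Probe 110593 did not pass the filter in the DG. The other Slc25a36 probe, 102060022, passed it and was higher there (0.58 ± 0.15, adjusted p = 3.51e-04).

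In the CeA, the probes of Slc25a30 (0.58 ± 0.07 and 0.32 ± 0.10) and Slc25a47 (0.45 ± 0.08, adjusted p = 2.05e-06) were highest, and Slc25a33 was lower (-0.49 ± 0.05, adjusted p = 3.66e-13). In the Cg, Slc25a36 with probe 110593 (0.59 ± 0.13), the orphan carrier Slc25a45 (0.32 ± 0.07) and Slc25a30 with probe 6840707 (0.29 ± 0.10) were higher. Lower in the Cg were Slc25a25, an ATP-Mg and phosphate carrier (-0.46 ± 0.07), Slc25a10 with probe 1400609 (-0.43 ± 0.06) and Slc25a36 with probe 102060022 (-0.41 ± 0.11, adjusted p = 0.00132). The 2 tested probes of Slc25a36 thus differed in sign in the Cg, as they did in the PVN and the DG.

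Genes that work beside the family were compared in the same fit. Of 4 tested probes of family members with other symbols, 2 were lower in NAB than in LAB mice, both for Mtch2, an outer membrane carrier homologue (-0.27 ± 0.08 and -0.46 ± 0.13). Of 8 probes for enzymes of the malate-aspartate shuttle and glutamate metabolism, limma called none for HAB against LAB (1 with an unadjusted p under 0.05), 2 were higher and 1 lower in HAB than in NAB mice, and 1 was higher and 3 lower in NAB than in LAB mice. Got1, the cytosolic aspartate aminotransferase, was higher in HAB than in NAB mice by 0.21 ± 0.05 and lower in NAB than in LAB mice by 0.21 ± 0.05. Glud1, glutamate dehydrogenase, gave 0.14 ± 0.04 and -0.18 ± 0.04 in the same comparisons. A probe of Mdh1, the cytosolic malate dehydrogenase, was lower in HAB than in NAB mice by 1.83 ± 0.08 and higher in NAB than in LAB mice by 1.92 ± 0.08, whereas the other 2 Mdh1 probes gave 0.13 ± 0.14 and 0.13 ± 0.11 for HAB minus NAB and were not called. Got2, the mitochondrial form, was lower in NAB than in LAB mice by 0.47 ± 0.14. Of 33 probes for other mitochondrial membrane transport, 1 was higher and 5 lower in HAB than in LAB mice, 2 higher and 3 lower in HAB than in NAB mice, and 1 higher and 4 lower in NAB than in LAB mice. Among them Sfxn1, a serine carrier, was lower in HAB than in LAB mice with both of its called probes (-0.29 ± 0.05 and -0.30 ± 0.05) and Vdac2, an outer membrane channel, was higher (0.26 ± 0.07).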

How the data were processed

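RNA of 5 brain regions of HAB, NAB and LAB mice was hybridised to bead arrays, and bead summaries from BeadStudio were QSpline-normalised by the authors in R. The deposited values are intensities on a linear scale. Versions of these tools, and whether background was subtracted, are not given in the sources used here. Of 78 labelled arrays, 3 DG arrays carried no values and 75 were used. The non-normalised table was left out, since its 156 columns matched no sample label.

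Among 46643 probes, 32794 carried 1 gene symbol, 55 carried several and 13794 carried none. Entrez numbers served to update 32722 symbols, and no member symbol was altered by this. Background was the 95th percentile of 1305 odorant and pheromone receptor probes on each array. Testing in a region required values above it in as many arrays as the smallest line held, or more. Tests ran on log2 of the deposited intensities with limma 3.58.1 in R 4.3.3 (lmFit, eBayes), and p-values were adjusted by Benjamini-Hochberg across all tested probes. The joint fit over 22083 probes had the mouse as a random block, with pairing taken from the mouse numbers in the labels (consensus correlation 0.0142). Fits inside regions had no block. Errors are standard errors for log2 differences and standard deviations for levels. A fold is given as "at least" where no array of the dimmer line was above background in any region it covers, and background then takes the place of the dim values.

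Members with the 12 largest line differences among those past the threshold were given by array, further called members by difference, and in addition the 8 genes with the brightest probes and the 3 highest and 3 lowest probes of each region. Genes of other lists were named where they passed the threshold, at most 4 a list. The members and lists were chosen with earlier results of these data known. Alternatives were 16 added before log2, no filter on dim probes, median centring, quantile normalisation, array weights, no block, and each mouse left out in turn. The scripts were tested on simulated data.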

Additional observations from a re-analysis of the deposited data

Results flagged for a closer look

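In 144 groups of 5 or 6 arrays of the 12 members given by array, 11 arrays lay far from the rest of their group, by Dixon's criterion, which chance exceeds in about 1 of 20 groups. Of these, 5 were Slc25a18 values. LAB mouse 06 read 158 in the CeA (other LAB arrays 16.8 to 29.1), 271 in the PVN (40.7 to 43.7) and 154 in the BLA (19.5 to 29.1). NAB mouse 15 read 65.6 in the CeA (other NAB arrays 104 to 128), and HAB mouse 11 read 22.4 in the BLA (other HAB arrays 16.1 to 16.8). LAB mouse 06 was also far from the rest for Slc25a17 in the PVN, with 30.2 (43.7 to 50.7), and for Slc25a15 (probe 5550064) in the CeA, with 24.9 (18.7 to 19.9). The remaining values were 11.3 for Slc25a30 (probe 104480102) of LAB mouse 03 in the PVN (8.54 to 9.05), 8.41 for Slc25a47 of NAB mouse 12 in the PVN (15.7 to 16.8), 3.83 for Slc25a10 (probe 105130195) of NAB mouse 04 in the CeA (7.01 to 8.81) and 2.18 for Slc25a46 of HAB mouse 09 in the CeA (3.98 to 4.87). The last 2 probes were at or near background.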

How the results depend on the processing

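Among the counts, 2 moved by more than 1.5 times. NAB against LAB inside regions gave 17 calls with array weights, against 11, and the line by region interaction gave 1 call with 16 added before log2 (Slc25a41, adjusted p = 0.0486), against 0. The cause was not tested. With each mouse left out in turn, counts ran from 8 to 9 for HAB against LAB, 5 to 6 for HAB against NAB and 11 to 15 for NAB against LAB, and inside regions from 11 to 13, 14 to 16 and 9 to 12. Region calls ran from 114 to 129 (127 with all mice), and the interaction stayed at 0. None of the 29 named line differences averaged over regions changed sign. Of 28 region differences named by rank, 3 were lost under a setting or without 1 mouse (Slc25a18 in the CeA, Slc25a36 with probe 110593 in the DG, and Slc25a30 with probe 6840707 in the Cg without NAB mouse 04, adjusted p = 0.0542) and none changed sign, whereas quantile normalisation turned the sign of 14 other region differences that were called under either setting, such as Slc25a11 with probe 130097 (Cg -0.11, then 0.05). Of 39 calls inside regions, 3 were lost under another setting and 7 without 1 mouse: these were the calls described above for Slc25a18, Slc25a27 and Slc25a47, Slc25a30 in the DG for NAB against LAB without any 1 of 7 mice (adjusted p up to 0.133), Slc25a17 in the Cg for HAB against NAB without HAB mouse 05 (0.0620) and Slc25a32 in the DG for NAB against LAB (0.0712). Of 29 named differences averaged over regions, 6 were no longer called after quantile normalisation (Slc25a46, Slc25a15, Slc25a26, Slc25a38 and Slc25a5 for NAB against LAB, Slc25a29 for HAB against LAB) and 3 without the filter on dim probes (Slc25a15, Slc25a11 with probe 770685, and Slc25a5). Leaving out a mouse lost a call 31 times, among Slc25a46, Slc25a15, Slc25a11, Slc25a29, Slc25a26, Slc25a38 and Slc25a5. Quantile normalisation turned the share of higher calls over all probes to 50.0% from 37.2% for HAB against LAB and to 42.7% from 24.2% for NAB against LAB, with 2 members higher and 6 lower and 2 higher and 8 lower. It shifted the median of all probes in the DG by -0.10.

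Without the mouse as a block, Slc25a46 was called for HAB against NAB (adjusted p = 0.0458), and no other line call among the members changed. The DG had the fewest arrays, 3 a line, and Slc25a32, Slc25a41 and Slc25a46 lay near background.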

Other observations

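Genes next to the line-dependent members were looked up in the RefSeq order (5 genes on either side), and this choice was made after the values were seen. Slc25a29 lies among the neighbours of Slc25a47 on chromosome 12, and both were lower in HAB and in NAB than in LAB mice. Other called neighbours there were Wdr25 (HAB minus LAB -0.29 ± 0.05, NAB minus LAB -0.30 ± 0.05), Dlk1 (HAB minus LAB -0.41 ± 0.11 and -0.49 ± 0.13 with 2 probes) and Eml1, which was higher in HAB than in LAB mice by 0.88 ± 0.08 and in NAB than in LAB mice by 0.72 ± 0.08. Of 10 tested neighbour probes of Slc25a47, 5 were called for HAB against LAB and 3 for NAB against LAB, where 7.17% and 11.9% of all probes were called. Neighbour probes of Slc25a17 were called in 0 of 11 cases by limma in both comparisons with HAB mice, and those of Slc25a3 in 0 of 13 for HAB against LAB and 2 of 13 for HAB against NAB. For Slc25a30, 0 of 9 were called for HAB against NAB and 2 of 9 for NAB against LAB, and for Slc25a41 1 of 6 was called in either comparison with HAB mice. Of 11 tested neighbour probes of Slc25a32 on chromosome 15, 2 were called for HAB against LAB and 5 for NAB against LAB (7.17% and 11.9% of all probes). Azin1 was lower in HAB than in LAB mice by 0.37 ± 0.07 and in NAB than in LAB mice by 0.57 ± 0.07, and Fzd6 was higher by 0.50 ± 0.12 and 0.53 ± 0.12. Atp6v1c1 (-0.16 ± 0.05) and Baalc (-0.22 ± 0.06 and -0.35 ± 0.08 with 2 probes) were lower in NAB than in LAB mice. Beside Slc25a18 on chromosome 6, 2 of 11 neighbour probes were called for HAB against NAB (6.24% of all probes), Pex26 (0.25 ± 0.06) and Bcl2l13 (-0.23 ± 0.07), and Pex26 was also lower in NAB than in LAB mice (-0.22 ± 0.06).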
